A study of Mus musculus with 4 samples.

Results

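The 10 genes Gdf15, Tnfrsf12a, Spp1, Clu, Fgg, S100a6, S100a11, Anxa2, Anxa3 and Krt18 are switched on or raised in kidney tubule cells under injury in other settings, and are described here in the renal cortex of diabetic and nondiabetic mice with and without ICAM-1. They were taken by symbol, each with 1 probe, from the 9900 genes on the array, of which 9076 had a symbol. The choice was made with differences on these same 4 arrays known, so the values of the 10 genes are a description and carry no test. The platform's annotation named 8 of them, and Gdf15 and Spp1 were named through their transcript accessions.

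Total RNA from the cortex of male mice was hybridised to CodeLink bioarrays, one-colour arrays that read biotin-labelled cRNA through fluorescent streptavidin. The diabetic KO group (DM-KO) was ICAM-1-/- mice on the C57BL/6J background given streptozotocin, a toxin of pancreatic beta cells, by 1 intraperitoneal injection of 200 mg/kg in citrate buffer. The diabetic WT group (DM-WT) was C57BL/6J mice (ICAM-1+/+) given the same injection. The nondiabetic KO group (ND-KO) and the nondiabetic WT group (ND-WT) were ICAM-1-/- mice and C57BL/6J mice that received citrate buffer only. All were injected at 8 weeks of age and killed 12 weeks later, at 20 weeks, and only mice with high blood glucose a week after streptozotocin entered the diabetic groups. Each group had 5 mice but 1 array, and whether an array carried a pool of the mice or a single one is not stated in the labels. A difference between 2 arrays therefore has no replicate check. Every diabetic mouse had streptozotocin and no nondiabetic mouse did, so exposure to the toxin and diabetes cannot be told apart. Icam1 was not analysed here, and the genotype labels were not checked by its transcript.

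Injured tubule cells lose part of their transport program, flatten, take up the cytoskeleton and adhesion proteins of a repairing epithelium, and secrete signals to neighbouring and immune cells. Gdf15 is a stress-induced cytokine distantly related to TGF-beta. Tnfrsf12a (Fn14) is the receptor of the cytokine TWEAK, Spp1 (osteopontin) is a secreted ligand of integrins and CD44, Clu (clusterin) is a secreted chaperone, and Fgg is the gamma chain of fibrinogen. S100a6 and S100a11 are small calcium-binding proteins, Anxa2 and Anxa3 bind membrane phospholipids in the presence of calcium, and Krt18 is the type I keratin of simple epithelia.

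The 250 bases before the annotated start of transcription are shown for 3 genes that held matches to the motifs searched and for Gdf15, the gene with the largest diabetes difference of the 10, which held none. They were read from RefSeq on mouse build GRCm38.p6, 5′ to 3′ on the gene's own strand, and capitals mark matches to the AP-1 motif TGANTCA, the GC box GGGCGG or the TATA box TATAAA on either strand. S100a11 lies on the plus strand of chromosome 3 with its window at chr3:93520246-93520495, Anxa2 on the plus strand with its window at chr9:69453433-69453682, Tnfrsf12a on the minus strand at chr17:23677450-23677699 and Gdf15, by its first annotated start, on the minus strand at chr8:70632457-70632706.
S100a11: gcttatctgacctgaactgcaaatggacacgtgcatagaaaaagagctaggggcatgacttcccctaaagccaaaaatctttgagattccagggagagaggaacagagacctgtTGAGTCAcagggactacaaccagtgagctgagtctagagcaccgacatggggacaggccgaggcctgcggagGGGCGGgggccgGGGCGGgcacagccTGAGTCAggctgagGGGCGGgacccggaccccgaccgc
Anxa2: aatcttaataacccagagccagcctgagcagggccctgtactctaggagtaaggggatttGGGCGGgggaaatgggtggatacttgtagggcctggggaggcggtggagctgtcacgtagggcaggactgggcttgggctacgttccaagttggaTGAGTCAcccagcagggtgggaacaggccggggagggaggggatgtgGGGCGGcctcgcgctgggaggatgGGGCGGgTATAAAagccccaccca
Tnfrsf12a: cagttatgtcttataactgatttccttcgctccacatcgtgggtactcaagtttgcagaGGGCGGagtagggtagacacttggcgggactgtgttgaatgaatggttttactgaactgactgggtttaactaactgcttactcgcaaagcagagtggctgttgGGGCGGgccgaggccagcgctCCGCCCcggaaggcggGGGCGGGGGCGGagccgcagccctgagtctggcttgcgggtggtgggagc
Gdf15: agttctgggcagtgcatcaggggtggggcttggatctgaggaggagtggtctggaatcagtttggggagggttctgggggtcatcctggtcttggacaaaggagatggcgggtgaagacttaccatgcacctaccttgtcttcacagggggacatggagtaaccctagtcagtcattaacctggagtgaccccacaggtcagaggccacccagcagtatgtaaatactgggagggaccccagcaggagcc

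A window was given for 8 of the 10 genes, with none for Anxa3 and Clu. Gdf15 and Spp1 had 2 annotated starts each, so the 8 genes had 10 windows. A gene is counted below if any of its windows held a match, while the shares are per window. The AP-1 motif, the site of the Fos and Jun factors, stood in 2 of the 8, at 136 and 38 bases before the start of S100a11 and at 95 bases before that of Anxa2, beside 6.75% of all 32851 windows of this length. The GC box, bound by Sp1, stood in S100a11, Anxa2 and Tnfrsf12a, or 3 of 8, beside 32.7% of all windows. TATAAA stood 17 bases before the start of Anxa2 and 211 bases before the first annotated start of Spp1. That is 2 of 8 genes, beside 12.4% of all windows. A composite site of ATF4, TGATGNAA, was matched in 0 of the 8 and in 3.45% of all windows. A match is a description of the letters and no evidence of binding, and no match says only that the letters are not in that window. Matches of the motifs searched did not overlap each other in these windows.

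Usable spots made up 62.8% to 66.2% of the 10032 gene probes on each array, and 9 of the 10 genes were measured on all 4 arrays. The exception was Spp1, whose spot on the DM-WT array was marked as poor. Values are log2 intensities after background correction with an offset of 50 and quantile normalization, and the offset pulls the ratios of dim spots, large ones included, towards 1. The only error these arrays give is that between spots of 1 bacterial control probe within an array, for which the standard deviation of a difference between 2 spots was 0.11 to 0.14 on the log2 scale. It does not cover labelling, hybridisation or the difference between mice, and the number of arrays limits the precision of every value below. In bulk cortex, fewer cells of a type and less RNA per cell cannot be told apart.

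Diabetic cortex stood above nondiabetic cortex for every one of these genes that could be set side by side, in both genotypes. On the DM-WT array 9 of 9 measured genes were above their ND-WT level, with Gdf15, Fgg, Tnfrsf12a, S100a6 and Clu at least 1.5-fold above it. On the DM-KO array 10 of 10 were above their ND-KO level, with Gdf15, S100a6 and Spp1 at least 1.5-fold above it. Under scaling by the array median, S100a6 (0.47) and Clu (0.49) in WT and Spp1 (0.51) in KO mice were below 1.5-fold, and in the authors' value table, taken as log2 of the value plus 1, so was S100a6 in WT mice (0.57). The median log2 difference was 0.66 between DM-WT and ND-WT and 0.41 between DM-KO and ND-KO, where the medians over all genes were 0.00 (6055 genes) and -0.01 (6339 genes). Of all genes, 1.75% were at least 1.5-fold above their ND-WT level on DM-WT and 50.1% were above 0, and 0.536% and 47.8% were so on DM-KO against ND-KO. None of the 10 was at least 1.5-fold lower in diabetic cortex, beside 0.875% of all genes in WT and 0.505% in KO mice. These 10 genes were chosen from the same differences, so nothing is read from their counts against those shares.

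**Figure D1:**
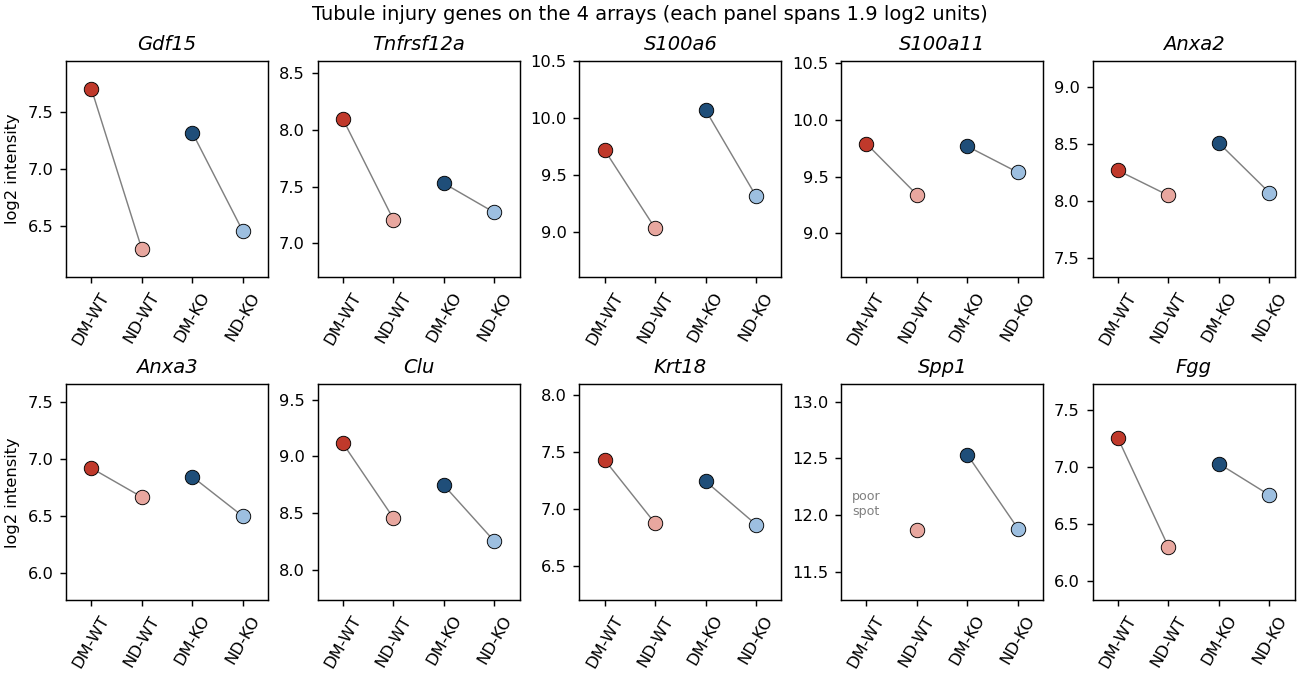
Log2 intensity (vertical axis, normalized, no unit) of each of the 10 genes on the DM-WT, ND-WT, DM-KO and ND-KO arrays, 1 point per array and no error bar because each group has 1 array. Both diabetic arrays lie above both nondiabetic arrays for the 9 genes measured on all 4, and Spp1 has no DM-WT point.

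Among the secreted signals and receptors, Gdf15 had the largest difference in both genotypes. Its log2 intensity was 7.71 on DM-WT against 6.30 on ND-WT, and 7.32 on DM-KO against 6.45 on ND-KO. Both diabetic arrays were high and both nondiabetic arrays were near the dim end, with background-subtracted intensities of 137 on DM-WT and 117 on DM-KO, against 29.4 on ND-WT and 39.8 on ND-KO. The log2 difference was 1.41 (2.66-fold) between DM-WT and ND-WT and 0.87 (1.82-fold) between DM-KO and ND-KO. Without the offset, after division by the constant the authors used for each array, the ratios were 5.38 between DM-WT and ND-WT and 2.82 between DM-KO and ND-KO. Gdf15 ranked 9 from the top of 6055 genes in the WT comparison and 13 from the top of 6339 in the KO comparison, and in the WT comparison it was the only one of the 10 genes at least 2-fold higher, as were 0.446% of all genes. None of the 10 reached 2-fold on DM-KO against ND-KO, where 0.142% of all genes did.

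Tnfrsf12a stood apart on DM-WT. The receptor's log2 intensity was 8.10 on DM-WT against 7.21 on ND-WT, and 7.53 on DM-KO against 7.27 on ND-KO. The difference was 0.89 (1.85-fold) between DM-WT and ND-WT and 0.26 (1.19-fold) between DM-KO and ND-KO, so the DM-KO array lay closer to the nondiabetic arrays than to DM-WT. Its 2 nondiabetic values were 0.06 apart, less than the 0.13 standard deviation between spots of 1 probe on those arrays. The transcript of its ligand, Tnfsf12 (TWEAK), was 6.54 on DM-WT against 6.61 on ND-WT, and 6.60 on DM-KO against 6.65 on ND-KO, a spread over the 4 arrays within that of repeated spots.

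Spp1 could be compared in KO mice only. Its log2 intensity was 12.53 on DM-KO against 11.88 on ND-KO, a difference of 0.65 (1.57-fold), and 11.87 on ND-WT, which lay 0.01 below ND-KO. On DM-WT the reading software marked the spot for contamination of its background, and the local background there was 51, beside 49 on DM-KO, 48 on ND-WT and 49 on ND-KO. With poor spots kept, Spp1 would read 13.17 on DM-WT against 11.87 on ND-WT, 1.30 higher on the log2 scale (2.46-fold), and DM-KO would lie below DM-WT by -0.63. Of the integrin chains that bind osteopontin, Itgb1 was 7.79 on DM-WT against 7.82 on ND-WT and 7.87 on DM-KO against 7.67 on ND-KO, while Itgav and Itgb3 were not above background on any array. Cd44 and Itga9 were not analysed here.

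Clu was higher in diabetic cortex and lower in KO cortex on both sides. Its log2 intensity was 9.12 on DM-WT against 8.46 on ND-WT, and 8.75 on DM-KO against 8.25 on ND-KO. The diabetes difference was 0.66 (1.57-fold) in WT and 0.49 (1.41-fold) in KO mice, and the genotype difference was -0.37 in diabetic and -0.21 in nondiabetic mice. Lrp2, the megalin receptor that takes up clusterin in the proximal tubule, was 9.67 on DM-WT against 9.82 on ND-WT and 9.61 on DM-KO against 9.76 on ND-KO, a difference of -0.15 in both genotypes.

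Fgg was lowest on the ND-WT array, below ND-KO by more than the spread of repeated spots. Its log2 intensity was 7.25 on DM-WT against 6.30 on ND-WT, and 7.03 on DM-KO against 6.75 on ND-KO. The difference was 0.96 (1.94-fold) between DM-WT and ND-WT and 0.28 (1.21-fold) between DM-KO and ND-KO. Its spots were dim, with background-subtracted intensities of 89.9 on DM-WT against 29.6 on ND-WT, and 86.7 on DM-KO against 60.7 on ND-KO. Without the offset the ratio of DM-WT to ND-WT was 3.50. Its spot lies in column 46 of the upper block, within columns 44 to 48, where a small share of spots was dim on DM-WT. Of 240 genes printed there, 3.33% were at least 2-fold lower on the DM-WT array than on ND-WT, against 0.0515% of 5829 elsewhere. The median difference was -0.001 there and 0.0003 elsewhere. The 14 measured spots within 3 rows and columns of Fgg had a median DM-WT over ND-WT difference of -0.06, between -1.36 and 0.13. Fgg was thus higher on DM-WT in a region where some neighbours were lower. Between ND-KO and ND-WT the 16 measured neighbours had a median of 0.04, between -0.27 and 0.50. Fgg, at 0.45 in that comparison, lay within this range. The other chains of fibrinogen gave smaller diabetes differences. Fga was at 7.02 on DM-WT against 6.65 on ND-WT (0.37) and 6.79 on DM-KO against 6.86 on ND-KO (-0.08). Fgb was not above background on ND-WT, was at least 1.20-fold higher on DM-WT, and stood at 6.15 on both KO arrays.

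**Figure D2:**
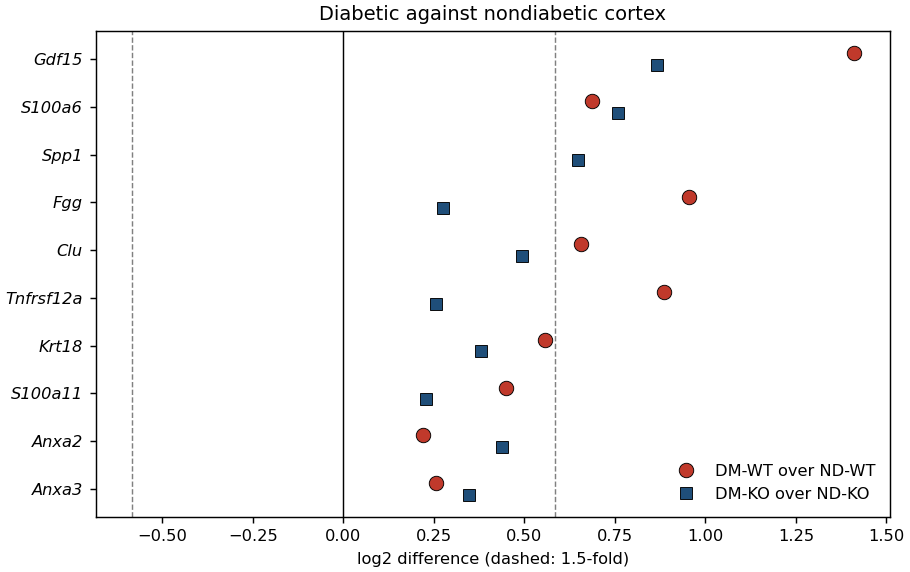
Log2 difference (horizontal axis) of diabetic over nondiabetic arrays for each of the 10 genes, in WT and in KO mice, with 1 array per group and no replicate error. Every point lies above 0, from 0.22 (Anxa2) to 1.41 (Gdf15) in WT and from 0.23 (S100a11) to 0.87 (Gdf15) in KO mice.

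The calcium-binding genes split by genotype pattern. S100a6 had a log2 intensity of 9.72 on DM-WT against 9.03 on ND-WT, and 10.07 on DM-KO against 9.31 on ND-KO. Its diabetes difference was similar in both genotypes, 0.69 (1.61-fold) in WT and 0.76 (1.69-fold) in KO mice, and KO cortex was above WT cortex by 0.35 with diabetes and 0.28 without. S100a6 ranked 15 from the top of 6339 genes on DM-KO against ND-KO and 72 from the top of 6055 on DM-WT against ND-WT. S100a11 read 9.79 on DM-WT against 9.34 on ND-WT, and 9.77 on DM-KO against 9.54 on ND-KO. Its 2 diabetic arrays were 0.02 apart, and its diabetes difference was 0.45 (1.36-fold) in WT and 0.23 (1.17-fold) in KO mice.

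Anxa2 and Anxa3 had the smallest differences in WT mice among the 10 genes. Anxa2 read 8.27 on DM-WT against 8.05 on ND-WT, and 8.51 on DM-KO against 8.07 on ND-KO, so that DM-KO was the highest array and the nondiabetic arrays were 0.02 apart. The difference was 0.22 (1.16-fold) in WT and 0.44 (1.35-fold) in KO mice, and under scaling by the array median the WT difference was 0.07. Anxa3 read 6.92 on DM-WT against 6.67 on ND-WT, and 6.85 on DM-KO against 6.50 on ND-KO. The Anxa3 difference was 0.25 (1.19-fold) in WT and 0.35 (1.27-fold) in KO mice. S100a10, the usual partner of Anxa2 in a complex at the plasma membrane, was not analysed here.

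Krt18 lay in the middle of the 10 genes. Its log2 intensity was 7.43 on DM-WT against 6.87 on ND-WT, and 7.24 on DM-KO against 6.86 on ND-KO, with the nondiabetic arrays 0.01 apart. The difference was 0.56 (1.47-fold) in WT and 0.38 (1.30-fold) in KO mice. Krt8, the type II keratin that pairs with Krt18 in filaments, read 7.78 on DM-WT against 7.43 on ND-WT (0.34), and 7.68 on DM-KO against 7.66 on ND-KO (0.03). Krt8 was thus nearly level between the KO arrays, where Krt18 was not.

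**Figure D3:**
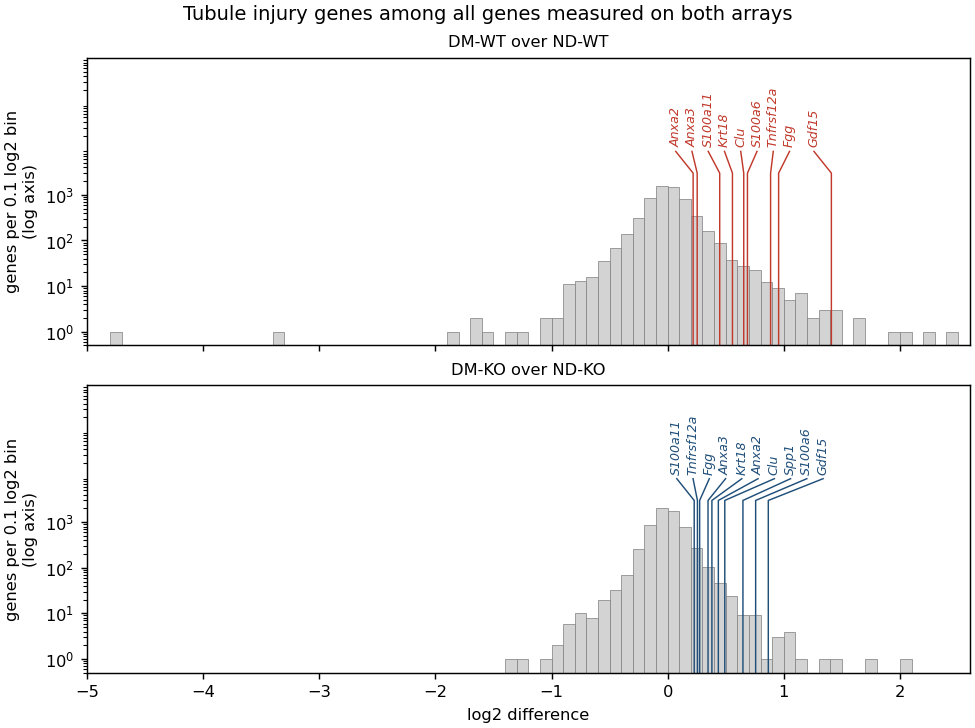
Number of genes per bin of 0.1 in log2 difference (vertical axis, log scale) for all 6055 genes measured on DM-WT and ND-WT (upper panel) and all 6339 measured on DM-KO and ND-KO (lower panel), with vertical lines at the 9 and 10 tubule injury genes measured there. All lines lie right of 0, and Gdf15 is the rightmost in both panels.

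Of the 12 ligands, receptors, and complex partners listed for the 10 genes, 9 were on the array and 5 were measured on every array. Their median difference was -0.03 between DM-WT and ND-WT (5 genes) and -0.03 between DM-KO and ND-KO (6 genes), and none was at least 1.5-fold different in either. Of all genes, 1.75% were that much higher and 0.875% lower in WT, and 0.536% and 0.505% in KO mice. Ret, the coreceptor through which Gdf15 signals in the brainstem, was not above background on any array. In the additive limma fit of diabetes and genotype over the 4 arrays, whose error has 1 residual degree of freedom, 0 of 6 partners had an adjusted p under 0.05, and 0 of 6 had an unadjusted p under 0.05. Over all 6512 genes fitted, 0.0154% rose and 0% fell with diabetes by that rule, and 12.8% had an unadjusted p under 0.05.

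Genotype differences among the 10 genes ran in both directions. Between DM-KO and DM-WT, 7 of 9 measured genes were lower and 2 were higher, beside 52.7% and 46.8% of 6111 genes, and the median was -0.19, where that of all genes was -0.01. None reached 1.5-fold, beside 0.769% of all genes higher and 1.06% lower. Tnfrsf12a was lowest at -0.57, followed by Gdf15 at -0.39, Clu at -0.37, Fgg at -0.23, Krt18 at -0.19 and Anxa3 at -0.08. S100a6 at 0.35 and Anxa2 at 0.24 were higher in DM-KO than in DM-WT. S100a11 was at -0.02 and turned positive under scaling by the array median, at 0.12.

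Between ND-KO and ND-WT the median was 0.04 over 10 genes, where that of all 6258 genes was 0.00. Fgg at 0.45, S100a6 at 0.28, S100a11 at 0.20, Gdf15 at 0.16 and Tnfrsf12a at 0.06 were higher in ND-KO, and Clu at -0.21 and Anxa3 at -0.17 were lower. Anxa2 at 0.02, Spp1 at 0.01 and Krt18 at -0.01 lay within the spread of repeated spots, and the sign of Anxa2 turned in the deposited value table. In all, 7 were above 0 and 3 below, beside 50.7% and 49.3% of all genes, and none reached 1.5-fold, beside 0.176% of all genes higher and 0.447% lower.

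**Figure D4:**
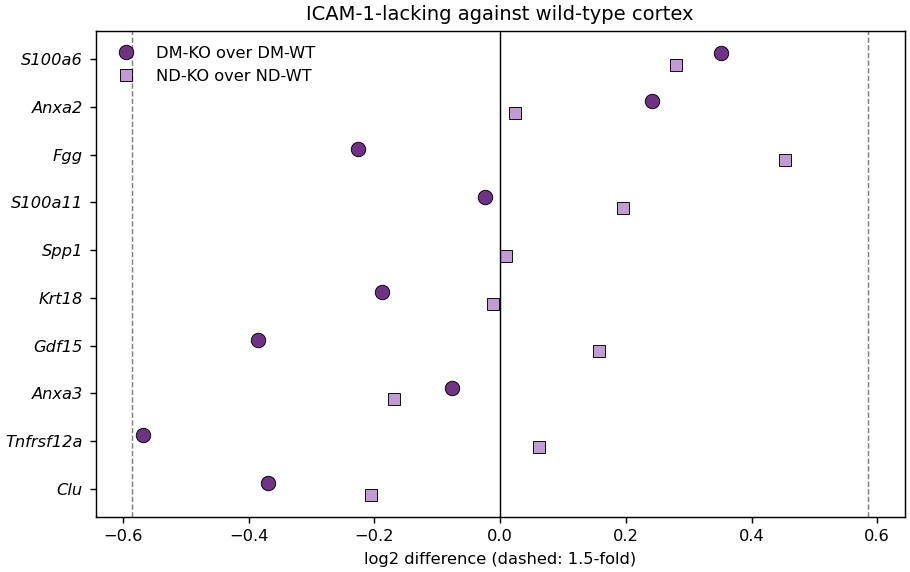
Log2 difference (horizontal axis) of KO over WT arrays for each of the 10 genes, in diabetic and in nondiabetic mice, with 1 array per group and no replicate error. Points fall on both sides of 0, from -0.57 (Tnfrsf12a) to 0.35 (S100a6) with diabetes and from -0.21 (Clu) to 0.45 (Fgg) without.

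The diabetes difference in WT minus that in KO mice, which no replicate allows to be tested, was 0.68 for Fgg, 0.63 for Tnfrsf12a and 0.54 for Gdf15. It was 0.22 for S100a11, 0.18 for Krt18 and 0.16 for Clu, and below 0 for S100a6 (-0.07), Anxa3 (-0.09) and Anxa2 (-0.22). The order of the arrays fell into 3 forms among the 9 genes measured on all 4. Gdf15, Tnfrsf12a, S100a11 and Fgg ran from DM-WT through DM-KO and ND-KO to ND-WT. Anxa3, Clu and Krt18 ran from DM-WT through DM-KO and ND-WT to ND-KO, and S100a6 and Anxa2 had DM-KO above DM-WT and ND-KO above ND-WT. Neighbours in these orders were as close as 0.01 (Krt18, nondiabetic arrays), 0.02 (S100a11, diabetic arrays, and Anxa2, nondiabetic arrays), 0.06 (Tnfrsf12a, nondiabetic arrays) and 0.08 (Anxa3, diabetic arrays), which is within the spread of repeated spots. Both diabetic arrays lay above both nondiabetic arrays for all 9, a pattern that 19.4% of 5914 genes measured on 4 arrays had.

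Taken about each gene's own mean over the 4 arrays, the median profile of the 9 genes was 0.33 on DM-WT, 0.16 on DM-KO, -0.27 on ND-WT and -0.24 on ND-KO. Krt18 lay nearest to it, at a Euclidean distance of 0.0419 over the 4 log2 values, and Gdf15 farthest, at 0.667. Of the other genes the 5 nearest were C1qc (0.0382), a complement component of macrophages, Tfrc (0.0491), the transferrin receptor, Slc12a3 (0.0691), the thiazide-sensitive sodium chloride cotransporter of the distal tubule, Ckmt1 (0.0736), a mitochondrial creatine kinase, and Ifit2 (0.0798), an interferon-induced gene. These distances rest on 4 arrays and describe only likeness of the pattern across them, since each gene's own mean was taken out.

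The other annexins and S100 genes show how far the members stood from their families. Of 9 annexins measured on all arrays, Anxa2 and Anxa3 included, 6 were above 0 in each diabetes comparison. Of all genes, 50.1% were so in WT and 47.8% in KO mice. The medians of these 9 were 0.25 in WT and 0.21 in KO mice. Anxa2 and Anxa3 were above 0 in both comparisons and were chosen from these differences. Nothing is therefore read from this count or from these medians. Anxa1 was 0.41 higher in WT and 0.35 in KO mice, Anxa4 0.35 and 0.12, Anxa5 0.30 and 0.37, and Anxa6 0.33 and 0.21. Anxa7 was at -0.15 and -0.20, Anxa11 at -0.11 and -0.01, and Anxa13, an annexin of epithelial cells, at -0.62 in WT and -0.41 in KO mice. Anxa2 and Anxa3 were thus within the range of the other annexins in WT mice, and Anxa2 had the highest value of the 9 in KO mice. Among 5 measured S100 genes, S100a6 and S100a11 included, S100a6 had the largest difference in both genotypes. Those named were chosen from these differences. S100a4 was at 0.36 in WT and 0.24 in KO mice, S100a13 at 0.41 and 0.27, and S100a14 at 0.45 and -0.14. In the limma fit 0 of the 7 other annexins and 0 of the 3 other S100 genes were called. At an unadjusted p under 0.05 were 6 and 2, beside 12.8% of all genes. With the edge columns left out Anxa13 fell by 0.52 (adjusted p = 0.0459, limma) and none of the 3 S100 genes was called. Of all genes, 0.836% rose and 0.691% fell by that rule.

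**Figure D5:**
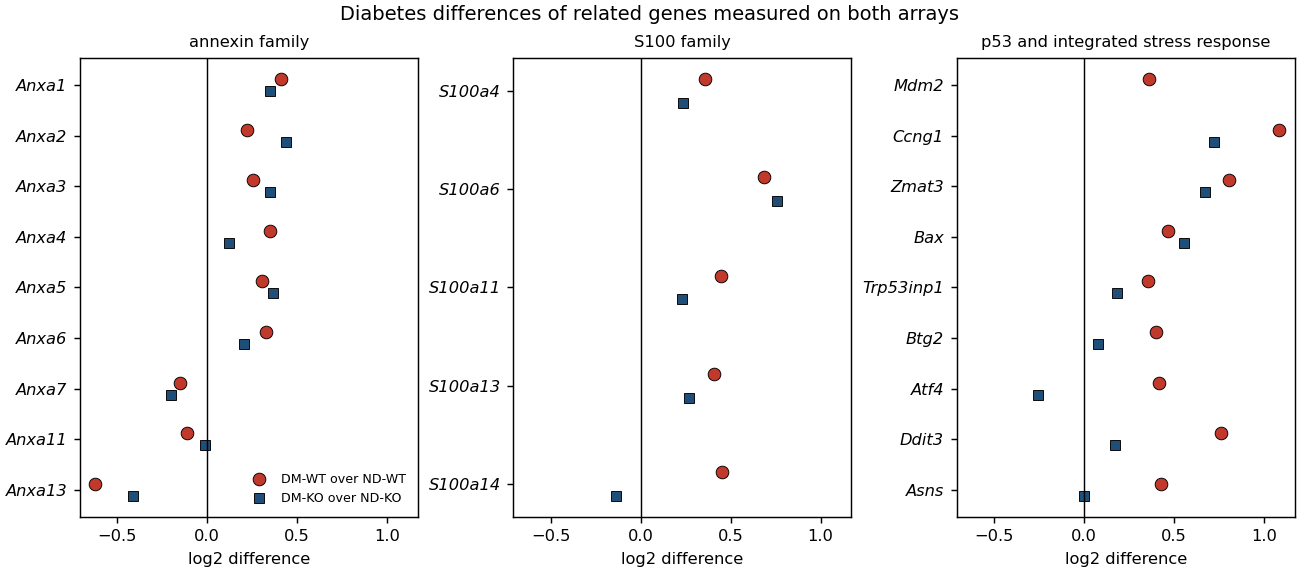
Log2 difference (horizontal axis) of diabetic over nondiabetic arrays, in WT (circles) and KO mice (squares), for the annexins, the S100 genes and the p53 and integrated stress response genes measured on both arrays of a comparison. Anxa13 lies lowest at -0.62 and Ccng1 highest at 1.09, both in WT mice, and 1 array stands behind each group.

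Beyond the 10 genes, 38 further genes of the tubule injury response were listed, of which 29 were on the array and 18 were measured on all 4. The list overlaps the others and is not separate from them. It shares among others Krt8, Fga and Fgb with the partners, Anxa1, Anxa4 and Anxa5 with the annexins, S100a4 with the S100 genes and Cdkn1a with the p53 genes. Between DM-WT and ND-WT all 18 measured genes were above 0, beside 50.1% of all genes, with a median of 0.30. At least 1.5-fold higher was 1 of them, beside 1.75% of all genes: Hmox1, which encodes heme oxygenase 1, at 0.63. Between DM-KO and ND-KO 15 of 20 measured genes were above 0, beside 47.8% of all genes, with a median of 0.13, and 0 were at least 1.5-fold higher, beside 0.536%. Cdkn1a, which encodes the cell cycle inhibitor p21, was above background on the diabetic arrays only and was at least 4.28-fold higher on DM-WT against ND-WT and at least 2.84-fold higher on DM-KO against ND-KO. Against DM-WT, DM-KO was lower by at least 1.5-fold for Hmox1 (-0.74) and Cdkn1a (-0.62), 2 of 21 measured genes, beside 1.06% of all genes. Of 22 such genes in the limma fit 0 were called for diabetes, the smallest adjusted p being 0.118. An unadjusted p under 0.05 was found for 12 of them, beside 12.8% of all genes. With the edge columns left out, where 0.836% of 6219 genes rose with diabetes and 0.691% fell, 2 of 21 rose by limma. These were Cdkn1a and Cp (ceruloplasmin), with log2 changes of 1.96 and 0.46. Both were above background on the diabetic arrays only. They entered the fit through the arrays where they were high, so nothing is read from these calls. Havcr1 and Lcn2, which encode the injury markers KIM-1 and NGAL, were not analysed here, and Sox9, Timp1, S100a8, Tff3 and Mmp7 were not above background on any array.

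Gdf15 is a target of p53 and of the integrated stress response, and 15 genes of these responses were listed. In WT mice 9 of 9 measured were higher in diabetes, beside 50.1% of all genes, with a median of 0.43. In KO mice 6 of 8 were higher, beside 47.8% of all genes, with a median of 0.18. Ccng1, a p53-induced cyclin, was 1.09 higher in WT and 0.73 in KO mice, and Zmat3, a p53-induced zinc finger gene, 0.81 and 0.67. Phlda3, a p53-induced repressor of Akt, was above background on the diabetic arrays only and at least 1.79-fold higher in WT and at least 1.62-fold higher in KO mice. Ddit3 (CHOP), a target of ATF4, was 0.76 higher in WT and 0.17 in KO mice, and the genotype difference was -1.22 between DM-KO and DM-WT and -0.64 between ND-KO and ND-WT. Of the other listed genes of the integrated stress response, Atf4 was at 0.41 in WT and -0.26 in KO mice and Asns at 0.43 and -0.00. Atf3 and Chac1 were not above background on any array and could not be compared. The part of either response in the Gdf15 differences was not tested. In the limma fit 0 of 11 were called and 8 had an unadjusted p under 0.05, beside 12.8% of all genes. With the edge columns left out 5 rose (Bax, Ccng1, Cdkn1a, Phlda3 and Zmat3), beside 0.836% of all genes. Cdkn1a and Phlda3 entered the fit through the diabetic arrays only, and the list was chosen with earlier results of these data known. Nothing is therefore read from these counts and calls.

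Markers of the cell types in cortex were set beside these differences. Over all genes, 50.1% were above 0 between DM-WT and ND-WT and 47.8% between DM-KO and ND-KO. The counts of every marker list below stand beside these shares. All 13 proximal tubule markers on the array were measured on every array, with medians of -0.10 in WT and -0.14 in KO mice and summed linear intensities of 24609 on DM-WT against 25829 on ND-WT and 24068 on DM-KO against 25950 on ND-KO. Of the 13, 4 were above 0 in WT and 3 in KO mice. The largest differences were those of Gatm (0.25 in WT and 0.50 in KO mice) and Anpep (0.48 and 0.06), while most ran the other way, among them Ggt1 (-0.41 and -0.15), Slc22a6 (-0.35 and -0.13) and Slc34a1 (-0.34 and -0.23), which were named after their values were seen. Macrophage and monocyte markers moved with the 10 genes: 8 of 8 measured were higher in diabetic WT and 7 of 7 in diabetic KO cortex, with medians of 0.70 and 0.33 and, for the 7 measured on every array, summed linear intensities of 1723 on DM-WT against 1016 on ND-WT and 1356 on DM-KO against 1072 on ND-KO. Ctss was 0.93 higher in WT and 0.42 in KO mice, C1qa 0.90 and 0.39, Lyz2 0.85 and 0.30, and C1qb 0.83 and 0.33, while Adgre1 and Itgam were not above background on any array. In the limma fit 0 of 8 macrophage markers and 0 of 13 proximal tubule markers were called for diabetes. At an unadjusted p under 0.05 were 6 and 5, beside 12.8% of all genes. With the edge columns left out C1qc rose, as did 0.836% of all genes. The part of macrophages in the differences of the 10 genes was not tested.

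Thick limb and distal tubule markers had medians of 0.16 in WT and 0.08 in KO mice, and 6 of 7 were above 0 in WT and 4 of 7 in KO mice. Calb1 was at 0.93 and 0.72 and Pvalb at 0.69 and 0.36, while Egf was at -0.24 and -0.23 and Umod at 0.16 and -0.44, the last pair named after their values were seen. Collecting duct markers had medians of 0.07 and 0.15, with 6 of 9 and 8 of 8 above 0 and Aqp2 at 0.30 and 0.91. Endothelial markers had a median of 0.07 in both genotypes, with 3 of 5 above 0 in each, Pecam1 at 0.17 and 0.31 and Kdr at -0.25 and -0.15. Fibroblast and smooth muscle markers had medians of 0.18 and 0.04, with 5 of 6 and 4 of 7 above 0, Dcn at 0.51 and 0.19, Tagln at 0.29 and 0.44, and Col1a1 not above background on any array. The 2 measured podocyte markers were Cdkn1c, at -0.01 and 0.19, and Ptpro, at -0.01 and 0.00. Of the markers of hepatocytes, the main source of fibrinogen in the body, Apoa1 and F2 were not above background on any array and both Ttr (-0.49 in WT and -0.30 in KO mice) and Ahsg (-0.02 and -0.07) were measured on every array.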

How the data were processed

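Renal cortex RNA of 4 groups was read on 1 CodeLink bioarray per group with an Axon GenePix scanner, per the series' design text. The deposited scanner tables hold spot mean and local background median intensity as read, linear and uncorrected, per the file headers. In the deposited value table, also intensity, each column equalled background-subtracted intensity divided by 1 constant per array (38.1 for DM-WT, 46.9 for DM-KO, 43.9 for ND-WT and 45.0 for ND-KO) for 100% of probes within 0.1%. Its column medians were 0.930 for DM-WT, 0.930 for DM-KO, 0.926 for ND-WT and 0.929 for ND-KO, its genes were not centred, and how the constant was chosen is not given in the sources used here.

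Here the intensities the authors deposited were corrected with normexp (offset 50), converted to log2 and quantile-normalized in limma 3.58.1 under R 4.3.3. Control spots were left out and poor spots set to missing. Of 10032 gene probes, 8923 were named by the platform annotation and 285 by accession, 1 had several symbols and 823 were unnamed. Values of a gene's probes were averaged. A gene counted as measured on an array if its spot carried the usable mark. If not, only a bound was given, the bright array's value over the dim probe's value or the lowest usable value on its array, whichever was higher.

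With 1 array per group, group differences have no test. Diabetes and genotype were fitted together over 4 arrays for the 6512 genes measured on 2 arrays or more, with Benjamini-Hochberg adjustment over all of them. The 1 residual degree of freedom is the departure from additivity, that is, how far the diabetes difference in WT mice lay from that in KO mice. A p therefore measures no spread between replicate arrays or mice. Genes whose diabetes difference varied with genotype were given a larger error. The genes, lists, motifs and naming rule were chosen with earlier results of these data known. Named were all 10 genes and all listed partners, of other lists up to 6 genes past 1.5-fold in either diabetes comparison or else the 2 largest, and the 5 nearest profiles. Every measured annexin and S100 gene, 5 tubule markers and the stress response genes Atf4, Asns, Atf3 and Chac1 were named after their values were seen.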

Additional observations from a re-analysis of the deposited data

Results flagged for a closer look

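Spp1 on DM-WT was the one value of the 10 genes left out of the comparisons. Its spot, marked poor for a contaminated background, had a background-subtracted intensity of 7965.7, above the 5817 on DM-KO, 3849 on ND-WT and 3984 on ND-KO. The local background of that spot was 51, where the median over gene probes on the array was 46.

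For 4 genes the difference between KO and WT mice had opposite signs with and without diabetes. It was -0.57 with diabetes and 0.06 without for Tnfrsf12a, -0.39 and 0.16 for Gdf15, -0.23 and 0.45 for Fgg, and -0.0239 and 0.20 for S100a11, on the log2 scale. With 1 array per group the opposition was not tested, and the values of 0.06 for Tnfrsf12a and -0.0239 for S100a11 lie within the spread of repeated spots.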

How the results depend on the processing

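No paired analysis was possible because each group has 1 array and the labels carry no replicate numbers, and no replicate could be left out. The 38 differences of single genes were recomputed under 6 alternatives that could move them, which gave 218 values. Dropping the filter on dim probes could not move them, since it changes only which other genes count as measured. Of these, 204 moved by less than the spread of repeated spots and 14 by more (7 with a normexp offset of 16 and 7 with median scaling), and 36 differences kept 1 sign throughout. The exceptions were Anxa2 in ND-KO over ND-WT (-0.00 to 0.03) and S100a11 in DM-KO over DM-WT (-0.03 to 0.12). Median scaling left 3 of 9 genes at least 1.5-fold higher in DM-WT than in ND-WT, without S100a6 and Clu, beside 1.14% of all genes. In DM-KO over ND-KO it left 2 of 10, without Spp1, beside 0.473%. In the authors' value table, where Gdf15 and Spp1 were not named and have no value here, 3 of 8 genes passed in DM-WT over ND-WT, S100a6 (0.57) being the one measured gene lost, and 1 of 8 (S100a6, 0.65) in DM-KO over ND-KO, where the loss is only that of those unnamed genes. At 2-fold the counts were 1 and 0, beside 0.446% and 0.142% of all genes. An offset of 16 put 6 of 9 genes at least 1.5-fold higher in DM-WT than in ND-WT, Krt18 (0.74) being added, beside 2.82% of all genes. It put 1 gene (Tnfrsf12a) that much lower in DM-KO than in DM-WT, beside 1.83%. It also put 1 (Fgg, at 0.72) that much higher in ND-KO than in ND-WT, beside 0.415%. Keeping poor spots put 6 of 10 that much higher in DM-WT than in ND-WT, Spp1 being added, beside 1.75%. It put 1 (Spp1) that much lower in DM-KO than in DM-WT, beside 1.09%. The causes of the other shifts were not tested. For all genes, limma called 1 for diabetes, against 0 with no background correction, 0 with an offset of 16, 0 with an intensity trend, 0 without genotype as a covariate, 82 with median scaling and 95 with edge columns left out. Of the further tubule injury genes it called 0, against 1 with median scaling and 2 with edge columns left out. Those 2 were above background on the diabetic arrays only. The share of all genes at an unadjusted p under 0.05 was 12.8%, against 12.6%, 12.7%, 12.7%, 9.97%, 15.9% and 14.9% in the same order. Signal over background limited Gdf15 and Fgg on ND-WT, where background-subtracted intensities were 29.4 and 29.6 beside a median local background of 47.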
